A study of Mus musculus with 96 samples.

Results

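The 8 genes described here make, carry, sense and clear vitamin D: the hydroxylases Cyp27a1, Cyp2r1, Cyp27b1 and Cyp24a1, the plasma carrier Gc, and the receptors Vdr, Rxra and Rxrb. They were taken by mouse gene symbol from 38924 Ensembl genes, and all 8 were found. The study measured poly-A RNA of whole liver in 48 male F1 mice of reciprocal crosses between NOD/ShiLtJ, in which autoimmune diabetes is common, and PWK/PhJ, inbred from wild-caught mice. Every mouse thus carries a NOD and a PWK copy of each autosomal gene, and the dam is assumed to be of the strain named first. The diets held 0.050 g/kg (high) or 0.009 g/kg (normal) of cholecalciferol, which is vitamin D3, so that no group went without vitamin D. With 2 diets, 2 ages and 2 crosses there were 8 groups of 6 mice: NODxPWK high older, NODxPWK normal older, NODxPWK high younger, NODxPWK normal younger, PWKxNOD high older, PWKxNOD normal older, PWKxNOD high younger and PWKxNOD normal younger. The age labels read 24 or 25 for older and 8 for younger mice with no unit, while the protocol names 24 and 15 weeks, so ages are given only as older and younger. The 7 mice with label 25 were older and fed the normal diet, 5 from NODxPWK and 2 from PWKxNOD. The labels do not give litters or cages, so p-values measure the spread between mice as sampled.

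Summed expected counts per mouse ranged from 2.03 to 7.48 M (megacounts), with a median of 5.27 M. The 6 mice that shared the shallowest barcode had 2.03 to 3.09 M. Levels are given as CPM, counts scaled to a common library size. The labelled tissue was checked against 8 hepatocyte markers, all of them detected, with albumin (Alb) at 64315 ± 11574 CPM (SD, n = 48). In whole tissue, fewer cells of a type and less RNA per cell cannot be told apart.

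Vitamin D3 from the skin or the diet is first hydroxylated at carbon 25, mainly in the liver and chiefly by Cyp2r1, an enzyme of the endoplasmic reticulum. Cyp27a1, a mitochondrial enzyme, can carry out the same step, and is best known as the sterol 27-hydroxylase that starts the alternative route of bile acid synthesis. The product circulates bound to the vitamin D-binding protein, encoded by Gc, which hepatocytes secrete. Cyp27b1, chiefly in the kidney, makes the active hormone, and Cyp24a1 breaks the hormone and its precursor down. The hormone acts through Vdr, a nuclear receptor that binds DNA as a heterodimer with a retinoid X receptor such as Rxra or Rxrb. Cyp24a1 is a classical target of Vdr in kidney and intestine.

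Promoters from opposite ends of the range of expression are shown first, that of Gc, the highest of the 8 genes, and that of Vdr, which had almost no counts. Each runs from 250 bases before to 50 bases after the start of the gene in RefSeq, build GRCm38.p6, and is written 5′ to 3′ on the gene's strand. The Gc window is chr5:89457849-89458148 on the minus strand, and the Vdr window is chr15:97908247-97908546 on the minus strand. The RefSeq start of Vdr lies inside the span of the gene in GENCODE, given further on, whose start is farther upstream.
Gc: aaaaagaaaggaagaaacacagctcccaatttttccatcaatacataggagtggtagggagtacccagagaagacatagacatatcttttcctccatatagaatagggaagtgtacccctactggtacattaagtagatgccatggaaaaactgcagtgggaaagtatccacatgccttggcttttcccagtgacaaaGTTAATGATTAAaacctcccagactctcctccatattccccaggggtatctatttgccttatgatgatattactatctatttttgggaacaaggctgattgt
Vdr: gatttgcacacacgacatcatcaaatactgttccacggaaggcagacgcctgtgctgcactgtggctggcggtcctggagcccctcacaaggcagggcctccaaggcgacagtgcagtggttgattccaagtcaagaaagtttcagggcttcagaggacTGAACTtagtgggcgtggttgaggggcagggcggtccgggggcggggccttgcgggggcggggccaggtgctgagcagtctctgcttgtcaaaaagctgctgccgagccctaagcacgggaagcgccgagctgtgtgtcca
Capitals in Gc mark GTTAATGATTAA, a match to the letters GTTAATNATTAA by which the liver transcription factor HNF1 was searched, lying 41 to 52 bases before the start. Capitals in Vdr mark a match, on the opposite strand, to AGTTCA, a nuclear receptor hexamer, lying 86 to 91 bases before the start. On both strands, the HNF1 letters were present in 20 of 32851 promoter windows (0.0609%). Among 9 windows of 7 of the 8 genes, with 2 windows each for Rxra and Rxrb, the Gc window was the one that held them. Hexamers that nuclear receptors bind (AGGTCA and its close form GGGTCA, as well as AGTTCA and its close form GGTTCA) occurred at least once in 43.7% of all windows and in 5 of the 9. A direct repeat of these hexamers with 3 bases between them, the form of element that Vdr and its partner bind, was found in 13 of all windows (0.0396%) and in none of the 9. Such matches describe letters in these windows only.

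The 8 genes spanned the range from one of the most abundant liver transcripts to none. Per kilobase of exon, Gc (ENSMUSG00000035540, chr5:89417522-89457898 in GRCm38) averaged 2516 ± 208 CPM per kb over all mice (SD, n = 48) and ranked 32 of 11864 genes compared. Cyp27a1 (ENSMUSG00000026170, chr1:74713574-74737892) averaged 181 ± 19.4 CPM per kb, at rank 235. Rxra (ENSMUSG00000015846, chr2:27676440-27762957) followed at 90.4 ± 11.9 CPM per kb, rank 464. The second retinoid X receptor, Rxrb (ENSMUSG00000039656, chr17:34031812-34038399), was far lower at 5.78 ± 0.788 CPM per kb. Cyp2r1 (ENSMUSG00000030670, chr7:114549682-114562972), the principal 25-hydroxylase, was lower still at 2.53 ± 0.732 CPM per kb, rank 6928. The order Gc, Cyp27a1, Rxra, Rxrb, Cyp2r1 held between neighbours in 48 of 48 mice. With the length of the longest transcript in place of all exons, Cyp27a1 stood at 208 ± 22.3 and Rxrb at 8.74 ± 1.19 CPM per kb, with the same order of means.

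**Figure D1:**
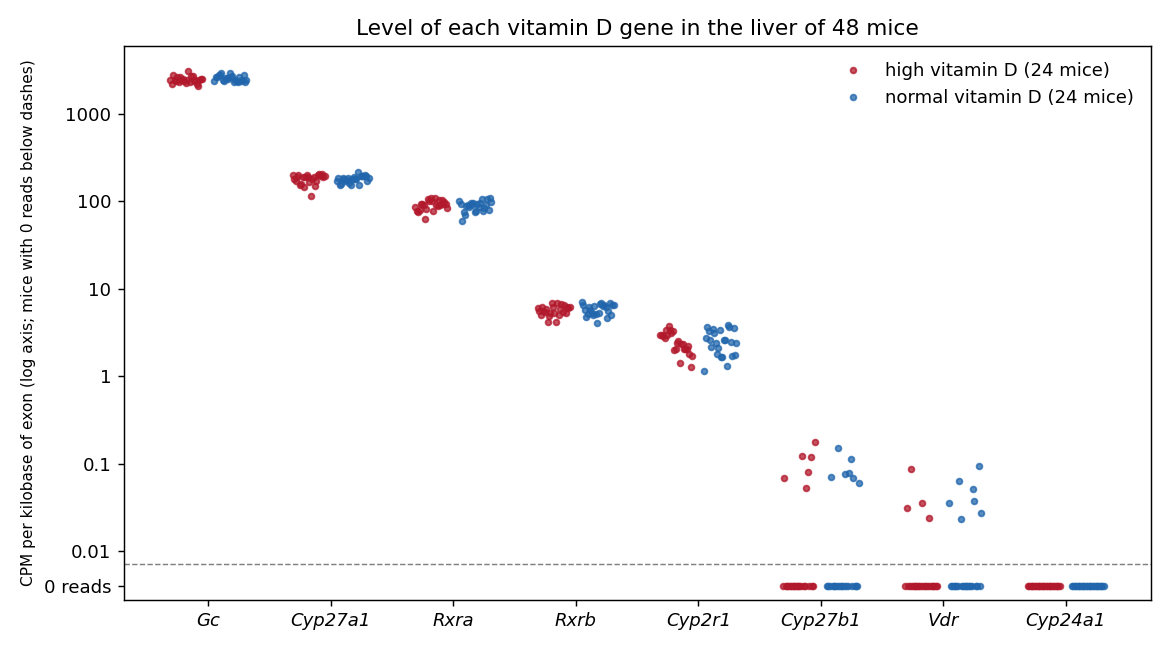
Level of each gene in every mouse, in CPM per kilobase of exon on a log axis, with mice at 0 drawn below the dashes. Gc, Cyp27a1, Rxra, Rxrb and Cyp2r1 form separate bands from 2516 down to 2.53 CPM per kb on average, while most mice lie at 0 for Cyp27b1 and Vdr, and all 48 for Cyp24a1.

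Vdr, Cyp27b1 and Cyp24a1 were near zero in liver and did not pass the filter on low counts. Vdr (ENSMUSG00000022479, chr15:97854425-97910630) had 14 counts in all, spread over 11 of 48 mice and never more than 2 in a mouse. Pooled over 250.2 M counts this is 0.0560 CPM (exact Poisson 95% interval 0.0306 to 0.0939, counting error only). Cyp27b1 (ENSMUSG00000006724, chr10:127048250-127053006) had 18 counts in 13 mice, at most 3 in a mouse, or 0.0719 CPM (0.0426 to 0.114). Per kilobase, Cyp27b1 was above Vdr in 13 of 48 mice, and the means of 0.0259 ± 0.0471 and 0.0107 ± 0.0230 CPM per kb lay within the spread of either (SD, n = 48). Cyp24a1 (ENSMUSG00000038567, chr2:170482708-170497145) had no count in any of the 48 mice, on the high diet or the normal one. The exact Poisson 95% interval of 0 counts in the pooled libraries reaches 0.0147 CPM. The limit taken for a count of 0, which is 3 counts, stands at 0.0120 CPM in the pooled libraries and between 0.401 and 1.48 CPM in a single mouse. Its exons overlap those of Pfdn4 on the opposite strand over 83 bases (2.33% of their length), and the libraries do not mark strand. Of 6 kidney tubule markers, Umod, Slc12a1, Aqp2 and Kap were at 0 in all mice. Lrp2 averaged 0.972 CPM, and the level of the last, Slc34a1, is given further on with the Vdr targets. The 6 together summed to at most 2.58 CPM on the high and 2.46 CPM on the normal diet. In contrast, Lrat and Reln of stellate cells averaged 9.82 and 61.8 CPM, and Clec4f of Kupffer cells 60.9 CPM. Which cells the Vdr and Cyp27b1 counts came from was not tested.

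The first comparison asked whether more vitamin D in the diet changed these genes. None of the 5 genes that passed the filter on low counts also passed the test for the diet, and the fitted differences of high over normal lay between -4.12% (Cyp2r1) and 3.0% (Rxra). With 24 mice on the high and 24 on the normal diet, edgeR's quasi-likelihood test with Benjamini-Hochberg adjustment called 0 of 5, against 41 of 11979 genes tested (0.342%). The carrier Gc averaged 4556 ± 399 CPM on the high diet (lowest 3834, median 4492, highest 5662) and 4729 ± 354 CPM on the normal diet (4275, 4680 and 5414; SD). The range of the normal diet lay within that of the high diet. The log2 difference, high over normal, was -0.05 ± 0.04 (SE; 95% interval -0.13 to 0.02, adjusted p = 0.648), so that the interval of the fold runs from 0.915 to 1.014.

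The mitochondrial hydroxylase Cyp27a1 was the gene with the smallest difference. It averaged 393.7 ± 48.8 CPM on the high diet (lowest 253.9, median 411, highest 445) and 392.7 ± 35.6 CPM on the normal diet (335, 395 and 478). The log2 difference was 0.00 ± 0.04 (-0.09 to 0.09, edgeR adjusted p = 1.00). Cyp2r1, the enzyme for which dietary vitamin D3 is the substrate, averaged 5.28 ± 1.41 CPM on the high diet (2.74, 5.04 and 8.06) and 5.41 ± 1.71 CPM on the normal diet (2.43, 5.37 and 8.12). Its log2 difference was -0.06 ± 0.11, and with few counts per mouse the interval is the widest of the 5, at -0.29 to 0.17 (edgeR adjusted p = 0.924).

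Among the receptors, Rxra averaged 500.9 ± 64.6 CPM on the high diet (346, 505 and 604) and 486.5 ± 65.9 CPM on the normal diet (331, 495 and 601). Rxrb averaged 22.7 ± 2.99 CPM on the high diet (16.5, 22.8 and 27.7) and 23.2 ± 3.31 CPM on the normal diet (16.1, 23.7 and 28.4). Mice of both diets covered nearly the same range for either receptor. The log2 differences were 0.04 ± 0.05 for Rxra (-0.07 to 0.15, edgeR adjusted p = 0.865) and -0.03 ± 0.06 for Rxrb (-0.15 to 0.09, adjusted p = 0.925). In counts simulated from these libraries for the diet comparison over 11979 genes, 60% of genes given a log2 change of 0.32 were called, 90% of those given 0.58 and 98% of those given 1.

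**Figure D2:**
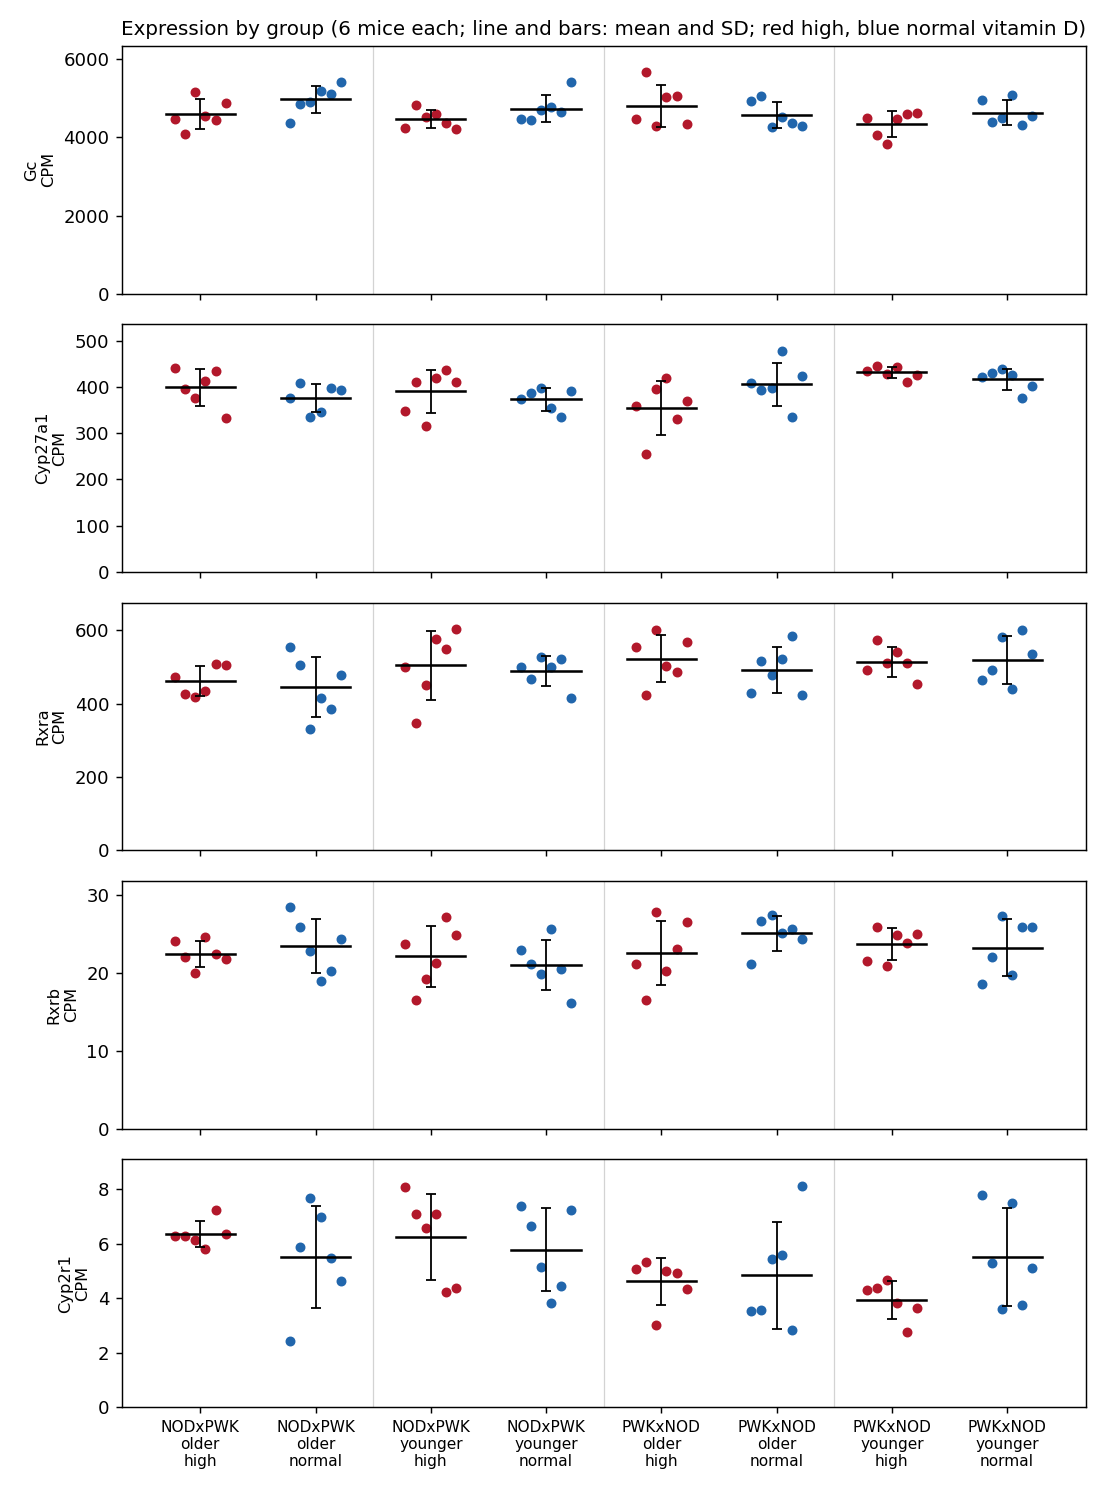
CPM of the 5 genes that passed the filter, one point per mouse, in the 8 groups of 6, high diet in red and left of the normal diet in blue, with group means and SD. High and normal groups overlap in every pair, and Gc stays between 3834 and 5662 CPM in all mice.

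For the genes near zero, counts were set side by side. Vdr had 5 counts in 4 of 24 mice on the high diet and 9 counts in 7 of 24 on the normal diet, a difference in mean CPM of -0.0361 (two-sided permutation test within strata of cross and age, p = 0.363). Cyp27b1 had 8 counts in 6 mice on the high diet and 10 counts in 7 mice on the normal diet (difference 0.000089 CPM, permutation p = 0.999). These were 2 tests without adjustment. In younger mice Vdr had 0 counts in 12 mice on the high diet and 6 counts in 5 of 12 on the normal diet, and in older mice 5 counts in 4 of 12 on the high and 3 counts in 2 of 12 on the normal diet. With no filter on low counts, the edgeR p of Vdr was 0.00609 for the diet in younger mice (adjusted p = 0.905) and 0.00816 for diet by age (adjusted p = 0.367), so neither passed after adjustment, and DESeq2 gave p = 0.462 and 0.477 without adjustment. Stellate cells are a known site of Vdr in mouse liver. Their 8 markers, all detected, summed to 88.6 to 363 CPM on the high diet (median 134) and 109 to 386 CPM on the normal diet (median 191), and their part in the Vdr counts was not tested. Cyp24a1 had 0 counts in the 24 mice on the high diet, as it had on the normal diet.

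The diet was also compared within each age and cross. In older mice, 12 on the high against 12 on the normal diet, 0 of the 5 genes were called where 445 of 11979 genes (3.71%) were. In younger mice 0 of the 5 were called, and 0 of all genes (0.0%). An unadjusted edgeR p of at most 0.05 was found for 573 genes, 4.78% of those tested. Tests of whether the diet difference itself varied called none of the 5, with age (74 of all genes, 0.618%) or with cross (15 of all genes, 0.125%).

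The lowest p among these strata was that of Cyp27a1 in older PWKxNOD mice, at 355 ± 58.0 CPM on the high diet (lowest 254, median 364, highest 419) and 406 ± 46.3 CPM on the normal diet (335, 403 and 478; SD, n = 6 each). Those ranges overlap. The log2 difference was -0.19 ± 0.09 (unadjusted p = 0.0312, edgeR adjusted p = 0.198), and it failed the adjustment. Cyp2r1 differed in sign between the crosses without passing either test. Its log2 difference was 0.16 ± 0.15 in NODxPWK and -0.28 ± 0.17 in PWKxNOD mice (difference between crosses 0.43 ± 0.23, edgeR adjusted p = 0.380).

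**Figure D3:**
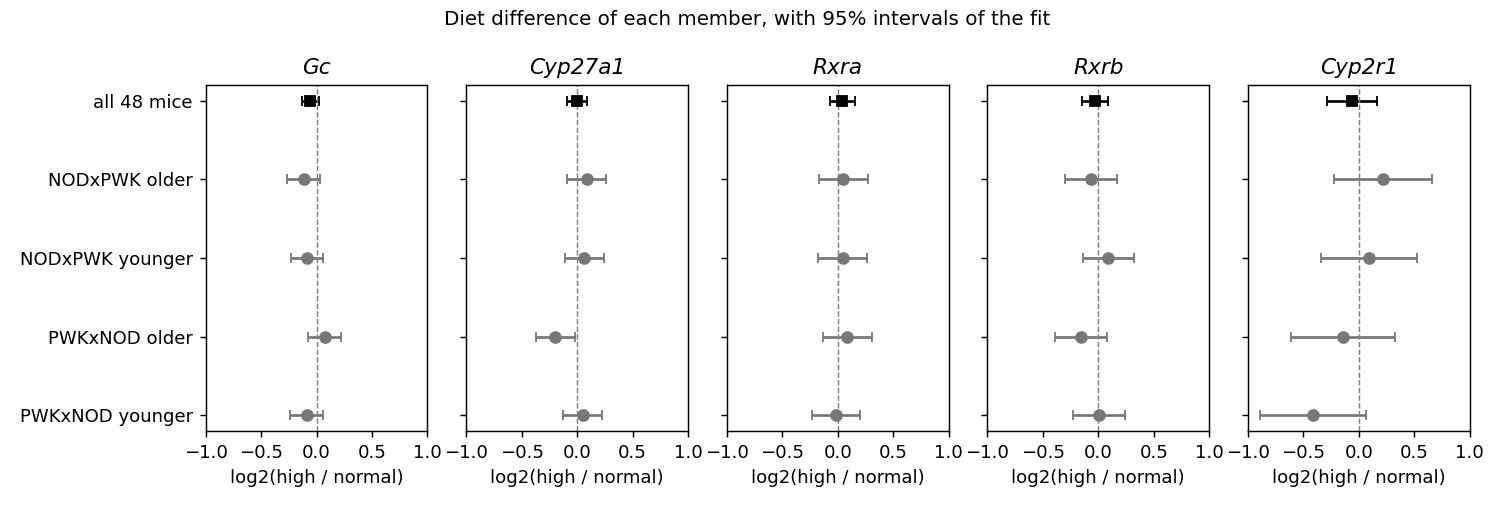
Log2 difference of the high over the normal diet for each of the 5 genes, over all 48 mice (squares) and in each combination of cross and age (circles), with 95% intervals. All 5 intervals over 48 mice cross 0, and the one stratum whose interval does not is that of Cyp27a1 in older PWKxNOD mice, at -0.19.

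Around the 8 genes, lists of vitamin D and receptor genes were counted in the same comparison. Over all genes, 41 of 11979 (0.342%) were called with the diet. At that share a list this short would mostly hold no call. None of 9 tested genes of vitamin D entry, uptake and breakdown was called (median log2 difference -0.01, against -0.00 for all genes). Likewise 0 of 14 partners of the retinoid X receptor (median -0.04), 0 of 11 receptor coregulators (-0.06), 0 of 13 genes of the sterol 27-hydroxylase route of bile acids (-0.02) and 0 of 2 tested members of the albumin family to which Gc belongs (-0.06) were called. Among 18 targets of Vdr known from other tissues, 8 could be tested, 1 fell and none rose (median -0.00). The intestinal and renal targets Trpv6, S100g and Slc34a1 did not pass the filter, with means of 0.00850, 0.0133 and 0.0224 CPM over all mice.

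Of 6 P450 electron donors, Fdx1 rose on the high diet and the others were not called (median 0.02). Fdx1 (ENSMUSG00000032051, chr9:51943306-51963556) encodes the ferredoxin that passes electrons to mitochondrial P450 enzymes, Cyp27a1, Cyp27b1 and Cyp24a1 among them. It averaged 75.035 ± 11.1 CPM on the high diet (lowest 58.9, median 74.0, highest 97.9) and 63.0 ± 7.84 CPM on the normal diet (47.04, 61.5 and 79.9). The diets overlap, and the highest group mean was that of older PWKxNOD mice on the high diet, at 88.7 ± 10.7 CPM against 66.4 ± 6.60 CPM on the normal diet (n = 6 each). The log2 difference over all mice was 0.24 ± 0.05 (0.15 to 0.34, edgeR adjusted p = 0.00675). It was 0.33 ± 0.07 in older and 0.15 ± 0.07 in younger mice, and the difference between the ages did not pass its test (0.18 ± 0.09, adjusted p = 0.450). A lane set is the 8 mice, 1 of each group, that shared flowcell lanes. The Fdx1 call was lost without lane set 3 (log2 difference 0.22, adjusted p = 0.0548), without the 7 mice of age label 25 (0.23, adjusted p = 0.237), without 10 mice with exocrine pancreas transcripts (0.25, adjusted p = 0.0772) and with a clock score as covariate (0.17, adjusted p = 0.298). Of the 10 mice with pancreas transcripts, 4 were on the high and 6 on the normal diet. Among older mice they numbered 1 in each cross on the high diet, and 3 in NODxPWK and 2 in PWKxNOD on the normal diet. Among younger mice, all PWKxNOD, 2 were on the high and 1 on the normal diet. All 10 pancreas markers were detected, with a summed level of 15.1 to 1790 CPM on the high and 19.8 to 271 CPM on the normal diet. The 10 mice were those with at least 10 CPM summed over the markers other than Cela1. That sum had a median of 0.605 CPM on the high and 0.525 CPM on the normal diet. The clock score, the mean log2 CPM of 6 circadian clock genes minus that of 4 others, averaged 1.87 ± 1.86 on the high and 0.963 ± 1.65 on the normal diet, in log2 units, and the part of these in the difference was not tested beyond those fits. Over the alternatives the edgeR or DESeq2 adjusted p of Fdx1 ranged between 0.000455 and 0.298.

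The Vdr target that fell was Slc30a10 (chr1:185454848-185468762), a manganese exporter induced by vitamin D in human intestinal cells. It averaged 63.3 ± 21.9 CPM on the high diet (34.8, 60.1 and 106) and 77.5 ± 18.1 CPM on the normal diet (46.1, 81.4 and 108). The log2 difference was -0.32 ± 0.07 (edgeR adjusted p = 0.0429). The call held in 6 of 16 alternatives, with adjusted p between 0.0112 and 0.661, and the log2 difference shrank to -0.12 with the clock score as covariate. Slc30a10 also differed between the crosses, at 86.0 ± 13.7 CPM in NODxPWK and 54.7 ± 14.6 CPM in PWKxNOD mice (log2 difference 0.67 ± 0.07, edgeR adjusted p = 3.40e-09), a difference of 0.10 with the clock score as covariate (adjusted p = 1.00).

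**Figure D4:**
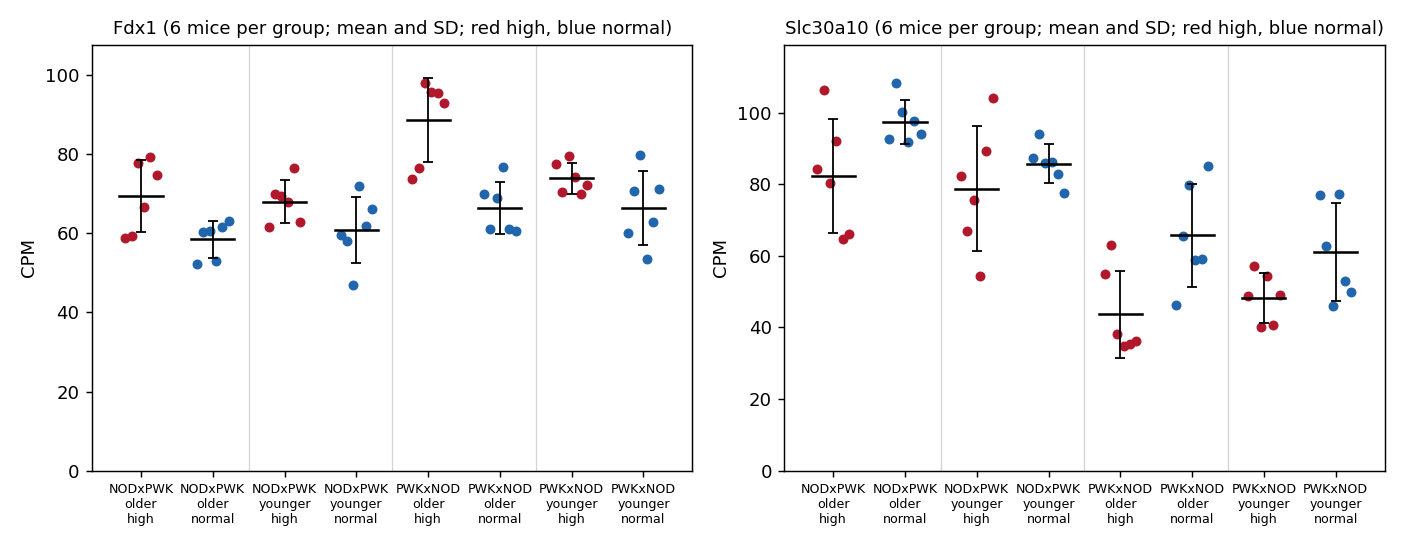
CPM of Fdx1 and Slc30a10 in every mouse of the 8 groups, high diet in red and left of the normal diet in blue, with means and SD. Fdx1 averages 75.035 CPM on the high and 63.0 CPM on the normal diet, and Slc30a10 averages 63.3 CPM on the high and 77.5 CPM on the normal diet.

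In older mice alone the calls in these lists numbered 7, beside 445 of all genes (3.71%), while over both ages they were 2, beside 41 of all genes (0.342%). Besides Fdx1 and Slc30a10, those in older mice were Spp1 and Cyp7b1, which rose, and Nr1i2, Nrip1 and Cyp46a1, which fell. That is 1 rise and 1 fall among 8 tested Vdr targets and likewise among 13 genes of the bile acid route, 1 rise among 6 electron donors, and 1 fall each among 14 receptor partners and 11 coregulators. No list gene was called in younger mice. Spp1, the matrix protein osteopontin and a Vdr target in bone, averaged 78.3 ± 25.99 CPM in PWKxNOD high older mice and 40.04 ± 11.51 CPM in PWKxNOD normal older mice. In NODxPWK it averaged 36.7 ± 4.105 CPM in high older and 33.6 ± 2.10 CPM in normal older mice (n = 6 each). The log2 difference over both crosses was 0.53 ± 0.10 (edgeR adjusted p = 0.00186), and the diet difference was larger in older than in younger mice (by 0.73 ± 0.15, adjusted p = 0.0164), a call that held in 11 of 16 alternatives and not without the mice of age label 25. Spp1 also marks bile duct cells. The 5 other bile duct markers, none of them at 0, summed in older mice to 3.32 to 13.4 CPM on the high diet (median 5.72) and 4.03 to 12.9 CPM on the normal diet (median 6.96). Of these only Sox9 passed the filter on low counts, with a log2 diet difference in older mice of -0.22 ± 0.19 (edgeR adjusted p = 0.590). Cyp7b1, the enzyme after Cyp27a1 in the alternative bile acid route, differed by 0.55 ± 0.13 (edgeR adjusted p = 0.00742). The Cyp7b1 call held in 12 of 16 alternatives. Among the fits that lost it were those without lane set 3 and with the clock score as covariate. Nr1i2, the pregnane X receptor and a partner of the retinoid X receptors, differed by -0.42 ± 0.13 (edgeR adjusted p = 0.0478). Its call held in 5 of 16 alternatives, with log2 differences between -0.55 and -0.06 and adjusted p up to 0.959. The calls of Nrip1 and Cyp46a1 held in 6 and 5 of 16, and that of Cyp46a1 was lost with the lane set as replicate block (-0.61, edgeR adjusted p = 0.0513). Neither Spp1 nor Cyp7b1 was called once the mice of age label 25, all on the normal diet, were left out (edgeR adjusted p = 0.297 and 0.365), nor without the mice with pancreas transcripts (0.0915 and 0.303).

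Age was the next comparison, older over younger mice, 24 against 24. None of the 5 genes was called, although 1439 of 11979 genes (12%) were. Gc had 4738 ± 417 CPM in older mice, against 4547 ± 328 CPM in younger ones (log2 difference 0.06 ± 0.04). Cyp27a1 had 383.8 ± 46.6 CPM in older mice, against 402.6 ± 35.9 CPM in younger ones (-0.07 ± 0.04). The difference was -0.08 ± 0.05 for Rxra, 0.05 ± 0.06 for Rxrb and 0.01 ± 0.11 for Cyp2r1. Genes around them did move with age. Of 9 tested genes of vitamin D entry, uptake and breakdown, 3 rose and 1 fell. Cyp3a11, a P450 that also hydroxylates vitamin D, rose to 4752 ± 1245 CPM in older mice, against 3147 ± 669 CPM in younger mice (log2 difference 0.60 ± 0.09, edgeR adjusted p = 5.68e-06). Ugt1a1, a glucuronosyltransferase, rose to 262 ± 52.9 CPM in older mice, against 182 ± 25.9 CPM in younger mice (0.52 ± 0.06, adjusted p = 3.45e-08). Sult2a1, the gene that fell, had 1.04 ± 2.01 CPM in older mice, against 6.06 ± 8.35 CPM in younger mice (-2.76 ± 0.46, edgeR adjusted p = 2.67e-05). The calls of Cyp3a11, Ugt1a1 and Sult2a1 held in 16 of 16 alternatives.

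Among the 13 tested genes of the sterol 27-hydroxylase route, 3 rose and 1 fell with age. Hsd3b7, the enzyme that follows in both bile acid routes, had 468 ± 64.8 CPM in older mice, against 390 ± 44.1 CPM in younger ones (log2 difference 0.26 ± 0.04, edgeR adjusted p = 3.15e-05). Cyp39a1, an oxysterol 7-hydroxylase, fell to 0.229 ± 0.258 CPM in older mice, against 1.88 ± 1.15 CPM in younger mice (-2.76 ± 0.32, adjusted p = 8.73e-09). The albumin family relatives of Gc rose, Afm by 0.19 ± 0.04 (adjusted p = 0.00206) and Alb by 0.18 ± 0.05 (adjusted p = 0.0220). The calls of Hsd3b7, Cyp39a1 and Afm held in 16 of 16 alternatives and that of Alb in 10. The median log2 difference was 0.07 over the route's tested genes, -0.03 over the entry, uptake and breakdown genes, and -0.00 over all genes. Of the other lists, 1 electron donor rose and 1 fell of 6, 1 of 14 receptor partners (Thrb) fell, 1 of 11 coregulators rose and 1 fell, and 3 of 8 tested Vdr targets rose (Spp1, Cyp3a11 and Slc34a2). The Slc34a2 call held in 11 of 16 alternatives and was lost with the clock score as covariate. Spp1 is also a bile duct marker, and Sox9, the other bile duct marker tested, rose with age as well.

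In the comparison of reciprocal crosses, NODxPWK over PWKxNOD, 1 of the 5 genes was called, against 1281 of 11979 genes (10.7%). It was Cyp2r1. It averaged 5.97 ± 1.399 CPM in NODxPWK (lowest 2.43, median 6.26, highest 8.06) and 4.72 ± 1.46 CPM in PWKxNOD mice (2.74, 4.52 and 8.12; SD, n = 24 each). The ranges overlap over nearly their whole length. The log2 difference was 0.34 ± 0.11 (0.11 to 0.56, edgeR adjusted p = 0.0455), close to the threshold. By group, Cyp2r1 was at 6.34 ± 0.479 CPM in NODxPWK high older and 4.61 ± 0.857 CPM in PWKxNOD high older mice. It was at 6.23 ± 1.57 CPM in NODxPWK high younger and 3.92 ± 0.695 CPM in PWKxNOD high younger mice. On the normal diet the crosses were closer, at 5.51 ± 1.86 CPM in older NODxPWK and 4.84 ± 2.0 CPM in older PWKxNOD mice. Younger mice on that diet were at 5.78 ± 1.51 CPM in NODxPWK and 5.499 ± 1.79 CPM in PWKxNOD (n = 6 each). Whether the cross difference varied with the diet did not pass its test (0.43 ± 0.23, edgeR adjusted p = 0.380).

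The Cyp2r1 call held in 7 of 17 settings, the one above included. It was lost without lane set 2, 3, 4 or 5 (adjusted p = 0.142, 0.160, 0.0762 and 0.144), with no filter on low counts (0.0625), without the mice of age label 25 (0.0546), with DESeq2 (0.0567), without the 10 mice that held pancreas transcripts (0.0627) and without the shallowest barcode (0.110). With the clock score as covariate the difference was 0.10 (edgeR adjusted p = 1.00). That score averaged 0.138 ± 1.51 in NODxPWK and 2.69 ± 0.961 in PWKxNOD mice, so the score moves with the cross. Rxra was at 475 ± 68.9 CPM in NODxPWK and 512 ± 56.1 CPM in PWKxNOD mice (-0.11 ± 0.05, adjusted p = 0.223), and passed the threshold only without the mice of age label 25 (-0.23, adjusted p = 0.0361). Gc, at 4693 ± 368 CPM in NODxPWK and 4591 ± 400 CPM in PWKxNOD mice, did not pass it under any of the 17 settings. Of the 6 P450 electron donors, Por and Fdx1 were lower in NODxPWK. Por, the reductase of microsomal P450 enzymes such as Cyp2r1, was at 122 ± 40.4 CPM in NODxPWK and 290 ± 126 CPM in PWKxNOD mice (log2 difference -1.25 ± 0.16, edgeR adjusted p = 1.15e-07). That call ended with the clock score as covariate (-0.46, adjusted p = 0.914). The Fdx1 difference of -0.20 ± 0.05 (edgeR adjusted p = 0.00227) was not called without the mice of age label 25 (-0.19, adjusted p = 0.0701) and became 0.018 with the clock score (adjusted p = 1.00). Of the other lists, 1 of 9 entry, uptake and breakdown genes was higher (Dhcr7) and 1 lower (Sult2a1) in NODxPWK, 3 of 14 receptor partners were higher and 2 lower, and 1 of 11 coregulators was higher and 1 lower. The Sult2a1 difference was -2.78 ± 0.52 (edgeR adjusted p = 0.00017), a call that held in 14 of 16 alternatives. Of 8 tested Vdr targets, 2 were higher and 2 lower. Of 13 genes of the sterol 27-hydroxylase route, 1 was higher and 2 lower, and of 2 albumin family genes Alb was higher. With the clock score as covariate, every cross call in these lists was lost except that of Sult2a1.

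Each mouse holds both parental alleles, so the share of counts given to the PWK copy compares the alleles within a liver. Of the 5 genes, 3 differed between alleles, against 4086 of 9362 autosomal genes tested (43.6%). The 3 are those with the most counts, and the differences in estimated counts were small. For Gc the PWK copy gave 52.6 ± 0.796% of counts (SD, n = 48; 51.1 to 54.1%), above 50% in 48 of 48 mice. The log2 ratio of PWK over NOD was 0.15 ± 0.01 (edgeR adjusted p = 4.62e-23). For Cyp27a1 the PWK copy gave 43.5 ± 2.37% (38.2 to 48.8%), below 50% in 48 of 48 mice, with a log2 ratio of -0.38 ± 0.02 (adjusted p = 2.63e-21). For Rxra the PWK share was 47.4 ± 2.36% (42.2 to 52.6%), below 50% in 42 of 48 mice, with a log2 ratio of -0.15 ± 0.02 (adjusted p = 9.40e-09). Each of the 3 kept its call and direction in all 13 settings tried.

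**Figure D5:**
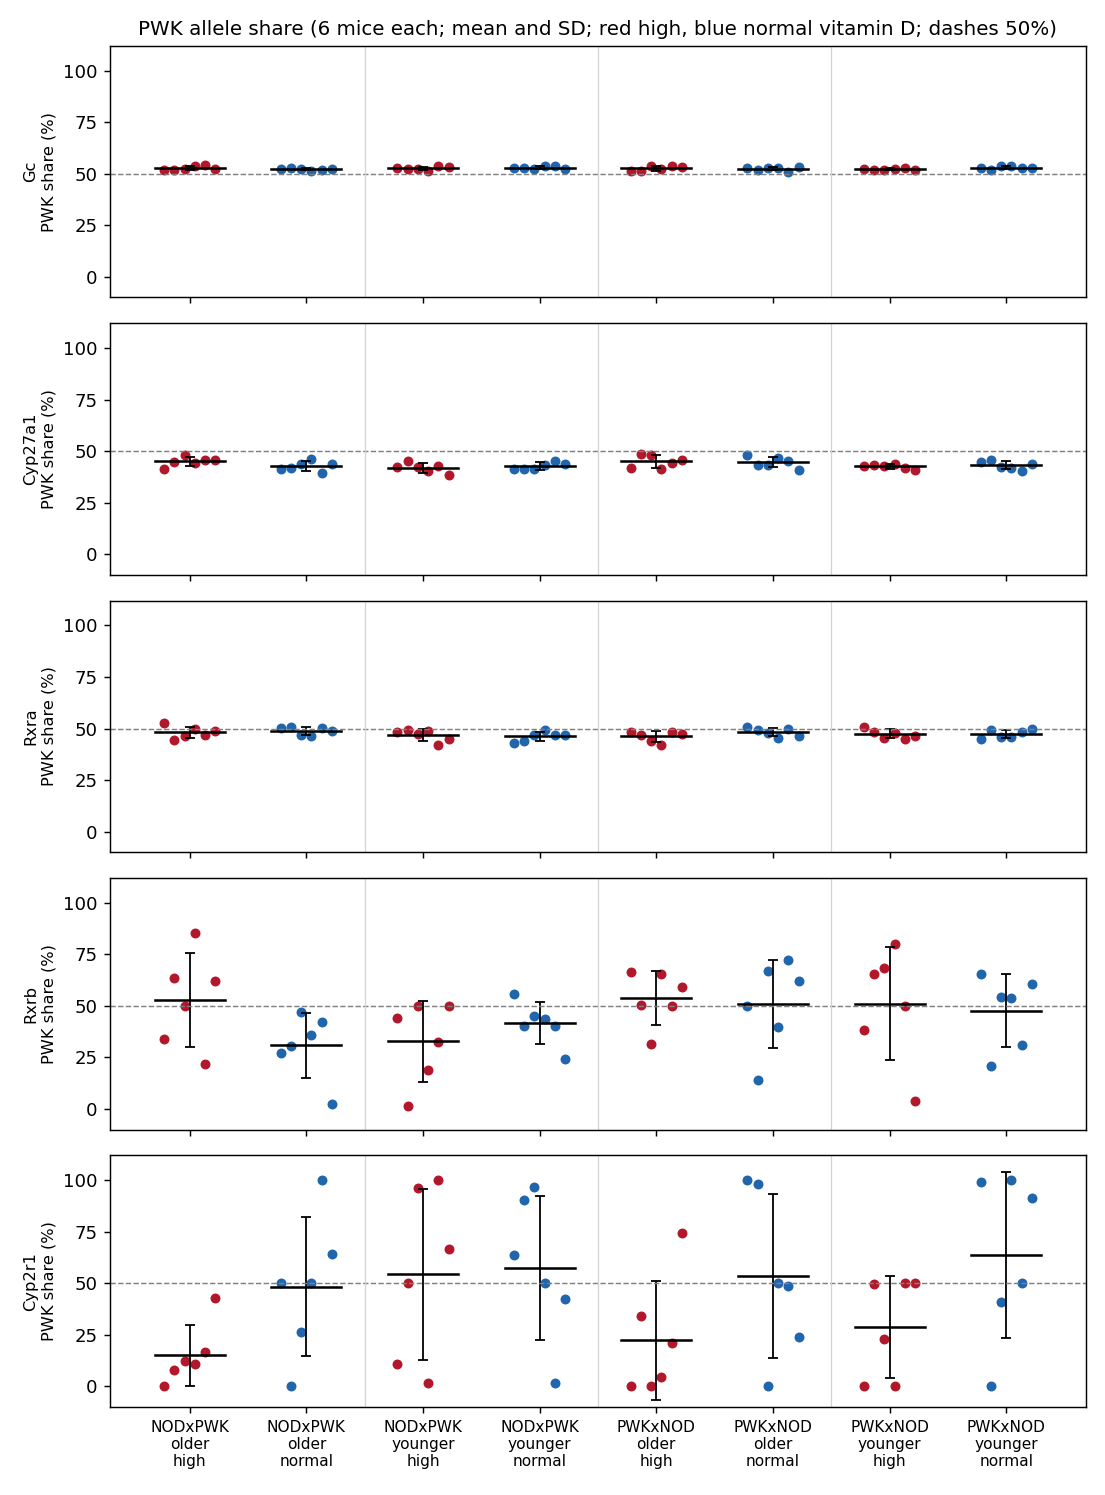
Share of counts from the PWK allele in every mouse, in percent, for the 5 genes by group, high diet in red and left of the normal diet in blue, with the dashed line at 50%. Gc lies in a narrow band at 52.6% and Cyp27a1 in a band at 43.5%, while Cyp2r1 is scattered between 0 and 100%.

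The other 2 genes could not be placed. Rxrb had a PWK share of 45.2 ± 19.6% (1.44 to 85.3%), with a log2 ratio of -0.30 ± 0.20 (edgeR adjusted p = 0.252). Cyp2r1 had 42.9 ± 35.3%, with 11 mice below 5%, 8 mice above 95% and 9 mice within 0.5 points of 50% (log2 ratio -0.57 ± 0.52, adjusted p = 0.425). Cyp2r1 had a mean of 27.9 counts per mouse and Rxrb of 120, so binomial counting alone would give an SD of 10.5 and 4.91 points if every count told the alleles apart. Among 1800 genes with a similar count, the SD of Cyp2r1 was larger than that of 98.2%, and among 2543 such genes that of Rxrb was larger than that of 91.3%. The number of reads that tell the strains apart is unknown for these 2 genes, and likewise for Gc, Cyp27a1 and Rxra.

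Allele shares were then set against the design. For parent of origin, maternal over paternal, 0 of the 5 genes were called (25 of all genes, 0.267%). The PWK share of Rxrb was 39.5 ± 18.7% in NODxPWK and 50.9 ± 19.3% in PWKxNOD mice. Its log2 ratio, maternal over paternal, was 0.36 ± 0.20 (edgeR adjusted p = 0.970). For the diet on the allele ratio, 0 of 5 were called (2 of all genes, 0.0214%), and for age on the ratio 0 of 5 (66 of all genes, 0.705%). The PWK share of Gc was 52.5 ± 0.874% on the high and 52.7 ± 0.724% on the normal diet. That of Cyp27a1 was 44.3 ± 2.59% in older and 42.6 ± 1.78% in younger mice (log2 ratio difference 0.10 ± 0.04, unadjusted p = 0.00887, edgeR adjusted p = 0.439). The scattered share of Cyp2r1 averaged 30.1 ± 31% on the high and 55.7 ± 35.3% on the normal diet. The log2 ratio differed by -2.10 ± 1.03 (unadjusted p = 0.0486, edgeR adjusted p = 1), and a permutation of the shares within strata gave p = 0.0109, 1 of 5 such unadjusted tests per factor. The difference thus failed the adjustment over all genes. Of the other permutation tests of the share, those below 0.05 were Rxrb by cross (p = 0.0419) and Cyp27a1 by age (p = 0.00919), also unadjusted.

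Within groups, some of these genes were correlated from mouse to mouse, in either direction. Correlations were computed over 48 mice on log2 CPM after group means were removed, for 10 pairs, with permutation p-values adjusted over the pairs. Rxra and Rxrb varied together, with r = 0.70 and rho = 0.67 (adjusted permutation p = 1e-04 for each, from the smallest p that the permutations can give). Gc ran opposite to both receptors, with r = -0.60 and rho = -0.55 against Rxrb (adjusted p = 1e-04 and 0.0013) and r = -0.50 and rho = -0.50 against Rxra (adjusted p = 0.00084 and 0.00158). Cyp2r1 also ran opposite to them, with r = -0.58 and rho = -0.53 against Rxra and r = -0.55 and rho = -0.54 against Rxrb (adjusted permutation p = 0.00055 for each r and 0.00132 for each rho). Without the 2 mice farthest from the median of the first gene, the r of these 5 pairs were 0.71, -0.50, -0.43, -0.52 and -0.54. The other 5 pairs, all 4 with Cyp27a1 and that of Gc with Cyp2r1, did not pass (adjusted permutation p of r between 0.261 and 0.911).

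Part of the variation within groups is shared by many genes. The first principal component of the same deviations held 14.4% of the variance over 11979 genes, and 33.45% of them correlated with it beyond 0.5 in size. The correlation with it was 0.80 for Gc, -0.76 for Rxrb, -0.64 for Rxra, -0.41 for Cyp27a1 and 0.21 for Cyp2r1. With the log2 total count of the library it was 0.48 for Rxra, -0.29 for Gc and 0.22 for Rxrb. The part of either in the correlations between genes was not tested.

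For each gene, the 3 genes most like it in this variation were taken from 10355 genes by Pearson's r, as a description with no p. Those most like Gc were Cp, F9 and Mut, with r of 0.86, 0.85 and 0.85. Cp (ceruloplasmin) and F9 (coagulation factor IX) encode plasma proteins made in the liver, and Mut a mitochondrial mutase. Cyp2r1 was most like Sc5d, an enzyme of cholesterol synthesis (r = 0.87), followed by Cyb5b (0.81) and Camk1d (0.79). Cyp27a1 was most like Pemt, which makes phosphatidylcholine (r = 0.75), then Slc22a18 (0.74) and Slc27a5, a bile acid ligase (0.71). Rxra was most like Scarb1, the receptor for high-density lipoprotein (r = 0.83), Glyctk (0.82) and Tfr2 (0.80), and Rxrb most like Grcc10 (0.85), F12 (0.83) and Bcl9l (0.83). Over these 15 pairs rho lay between 0.54 and 0.88, and r without the 2 farthest mice between 0.58 and 0.86.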

How the data were processed

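The authors deposited expected counts per gene for the NOD and the PWK allele of each mouse. These are EMASE output, estimated counts that need not be whole and are not scaled to depth. The submitters' processing notes name Bowtie 1.1.2 and CASAVA 1.7.0 as tools and list mm10 and GRCm38 as builds. Not given in the sources used here are the EMASE version, its annotation and how the 2 runs per mouse were joined. Both tables were summed and rounded, and 37607 of 38924 genes were matched to GENCODE M21 symbols; the other 1317 held 0.159% of counts.

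Total counts were tested with edgeR 4.0.16 in R 4.3.3 (filterByExpr, TMM, 8 group means, robust quasi-likelihood test, Benjamini-Hochberg adjustment over 11979 genes, threshold 0.05). CPM are counts scaled to the library size after TMM, and log2 CPM used a pseudocount of 0.5. Allele counts were tested likewise, with the mouse as fixed effect, on the 9362 autosomal genes whose mean count reached 20. Permutation tests drew 100000 resamples in Python 3.11.15 with SciPy 1.17.1. On simulated data for the diet comparison over 11979 genes, 4 of 11779 unchanged genes were called.

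The 8 genes, the pathway and marker lists, the tests and the first alternatives were chosen with earlier results of these data known. Named beyond the 8 genes are the list genes called, up to 3 by p-value in each list and comparison, and the 3 genes most like each of the 8. Other named genes, such as the markers Lrat, Reln and Clec4f and the low Vdr targets, were picked after their values were seen.

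Each lane set held 1 mouse of every group, per the labels, so replicate numbers mark a shared batch. Over 168 pairs within a lane set the mean correlation of deviations from group means was -0.00489, and 32 pairs were above 0.1. Chi-square per gene between the counts of 2 mice of a group lay between 4.35 and 54.2 over 120 pairs, above sampling noise in each.

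Alternatives were RLE size factors, DESeq2 1.42.0, other filters, unrounded counts, the lane set as replicate block, each lane set left out, the mice of age label 25 left out, and limma 3.58.1 on log2 allele ratios. Chosen after seeing the data were 4 more: leaving out the shallowest barcode (6 mice) or 10 mice with at least 10 CPM of exocrine pancreas transcripts other than Cela1, a clock score as covariate, and a permutation test of the PWK share. That score subtracts, from the mean log2 CPM of Ciart, Dbp, Nr1d2, Per2, Per3 and Tef, that of Arntl, Clock, Nfil3 and Npas2.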

Additional observations from a re-analysis of the deposited data

Results flagged for a closer look

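Among 80 sets of 6 mice, each a group and a measure of a gene (CPM or PWK share), 1 held a mouse far from the others. In NODxPWK normal younger mice, the mouse of lane set 6 had 5414 CPM of Gc, while the other 5 lay between 4438 and 4768 CPM. Its gap to the next mouse was 0.662 of the group's range, above Dixon's 95% critical value for 6 values. Chance gives about 1 such set in 20.

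Of the named pathway genes, Spp1 differed in its effects between groups by a test of the difference itself. Its log2 diet difference was larger in older than in younger mice by 0.73 ± 0.15 (edgeR adjusted p = 0.0164, between 0.00249 and 0.286 over 16 alternatives, of which 11 kept the call). Its log2 age difference was smaller in NODxPWK than in PWKxNOD mice, by -0.82 ± 0.15 (edgeR adjusted p = 0.0118, between 0.000677 and 0.226, with 12 of 16 alternatives keeping the call). Neither call was kept without the mice of age label 25.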

How the results depend on the processing

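For the diet, at each age, for diet by age, diet by cross and age, 0 of the 5 genes were called under all 17 settings, and for PWK over NOD 3 were called under each of 13; the lane set as replicate block changed no call among these 5 genes (0 called with the diet and 1 with the cross). Among the pathway genes it ended the calls of Cyp46a1 for the diet in older mice and of Ncoa2 for the cross. Of the 5 genes, those called with the cross numbered 0 with no filter on low counts, without the shallowest barcode, without the mice with pancreas transcripts, with the clock score and with DESeq2, and 0 to 1 with each lane set left out. The adjusted p of Cyp2r1 there was 0.0625, 0.110, 0.0627, 1.00 and 0.0567. Without the mice of age label 25, which leaves 1 mouse in NODxPWK normal older, assumed to vary like the other groups, Rxra was called (-0.23) and Cyp2r1 was not (adjusted p = 0.0546). Over all genes, diet calls (41 above) numbered 0 without those mice, without the pancreas mice and with the clock score, 6 without lane set 3, 15 without the shallowest barcode, 24 with no filter and 123 with DESeq2. In older mice (445 above) they numbered 5, 19 and 53 without label 25, without the pancreas mice and with the clock score, 176 without lane set 6 and 290 with no filter. Calls in younger mice were 0 or 1, those of diet by age (74 above) ran between 0 and 164, and those of diet by cross (15 above) between 0 and 90. Age calls (1439 above) numbered 777, 894 and 740 without label 25, without the pancreas mice and with the clock score, and cross calls (1281 above) 847 without label 25 and 62 with the clock score. On the allele ratio, diet calls (2 above) numbered 0 without lane set 2 or 6 and 16 without label 25, age calls (66 above) 39 and parent-of-origin calls (25 above) 16 without lane set 6.

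Differences near 0 changed sign. With the clock score, the diet difference was -0.012 for Rxra, -0.0011 for Cyp27a1 and 0.029 for Cyp2r1, the age difference -0.11 for Cyp2r1 and the cross difference 0.049 for Rxra. The Cyp27a1 diet difference was -0.0041 with no filter and -0.00073 without the shallowest barcode, and that of Rxrb 0.047 without the pancreas mice. With each lane set left out, the diet difference ran from -0.023 to 0.025 for Cyp27a1, -0.093 to 0.033 for Cyp2r1 and -0.062 to 0.0031 for Rxrb, the age difference from -0.046 to 0.14 for Cyp2r1, and the cross difference from -0.0043 to 0.056 for Gc. The cause was not tested. The share of mice with a Cyp27b1 count differed by -4.17 points, high minus normal (permutation p = 1.0), where the mean CPM differed by 0.000089. Per length of the longest transcript, Cyp27a1 was at 208 and Rxrb at 8.74 CPM per kb. Depth limits Vdr, Cyp27b1 and Cyp24a1.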
